A study of Mus musculus with 6 samples.

Results

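The genes described here are 9 members of the bone morphogenetic protein (BMP) system: the ligand genes Bmp2, Bmp4, Bmp6 and Bmp7, the genes of the secreted BMP-binding proteins Grem1 and Bmper, and the target genes Id1, Id2 and Id3. They were chosen by name, with earlier results of these data known. Every probe set that the platform annotation pairs with 1 of them was taken, which gave 13 of 45037 probe sets, or 9 of 18193 genes. Juxtaglomerular (JG) cells, the renin-secreting cells of the afferent arteriole of the kidney, were compared with renal mesenchymal stromal cells (MSC), 3 samples of each, on single-channel Affymetrix mouse arrays. All samples came from C57BL6 mice with the Ren1c YFP genotype, a fluorescent reporter of the renin gene. The 3 JG samples were sorted as YFP-positive cells of adult mice, while the 3 MSC samples of adult mice were sorted by the surface antigen CD44 and cultured to confluence, so the cell type and culture cannot be told apart. The labels give a serum-containing growth medium for all 6 samples and do not say whether the JG cells were cultured, how many animals went into a sample or whether the samples of a group were separate cultures. The p-values therefore measure the spread between these samples, which may be technical.

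BMPs are secreted dimers that bring type I and type II receptor kinases together. The active type I receptor phosphorylates Smad1, Smad5 and Smad9, which enter the nucleus with Smad4 and switch on target genes, among which the Id genes are the best known. Id proteins carry a helix-loop-helix without a DNA-binding region and hold E proteins away from DNA. Secreted antagonists such as gremlin 1 bind BMPs outside the cell and keep them from their receptors. In the kidney, Bmp7 is needed for nephron formation, and Bmp4 and Grem1 take part in the branching of the ureteric bud.

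Before the members, the labels were checked against marker genes. Of 24 markers of the proximal tubule, thick ascending limb, distal tubule and collecting duct, 20 were called higher in JG, and their summed intensity was 43927 to 59164 in the JG samples and 458 to 781 in the MSC samples, where 15 of the 24 stayed below 16 on every array. Rgs5, a regulator of G protein signalling found in renin cells and pericytes, was higher in JG (1105, 2343 and 2120.3 against 86.4, 48.3 and 308 in MSC). The connexin 40 gene Gja5 was 3.98, 76.7 and 42.0 in JG and 1.54 to 7.94 in MSC and was not called, the connexin 37 gene Gja4 was at most 21.7 on any array, and Ren1 and Akr1b7 were not analysed here. Of 8 MSC surface markers 2 were called higher in JG (Thy1 and Nt5e) and 2 lower (Itgb1 and Cd44, the antigen by which the MSC were sorted). Of 5 smooth muscle markers 4 were lower in JG (Acta2, Tagln, Cnn1 and Smtn) and 1 higher (Myh11), with a summed intensity of 1976 to 2194 in JG and 15197 to 19348 in MSC. Of 4 podocyte markers 1 was lower in JG and 3 were not called, with a summed intensity of 384 to 1796 in JG and 2432 to 4533 in MSC; the one called, Wt1, was 3.36, 7.75 and 16.8 in JG against 407, 398 and 259 in MSC. The part of these markers in the lower Grem1, Bmper and Id3 described next was not tested. In 3 further lists no marker was called lower in JG, and those called higher were 3 of 8 endothelial markers (summed intensity 840.2 to 1356 in JG, 91.8 to 141 in MSC), 2 of 7 macrophage and leukocyte markers (795 to 2775 in JG, 120 to 451 in MSC) and 2 of 6 fibroblast markers (10664 to 27826 in JG, 13563 to 15306.5 in MSC), the others not being called. Of all genes 6.65% were called higher in JG and 6.13% lower. JG sample 1 stood nearest to MSC, with a correlation of 0.802 to 0.812 with the MSC arrays against 0.675 to 0.689 for JG sample 2, and the arrays within the JG group correlated at 0.797 to 0.882 and within MSC at 0.971 to 0.975.

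The clearest differences among the 9 genes were lower values of both BMP-binding proteins and of Id3 in JG. Grem1 averaged 7.28 ± 4.10 in JG and 827 ± 810 in MSC, Bmper 59.4 ± 60.4 in JG and 1634 ± 506 in MSC, and Id3 444 ± 374 in JG and 3506 ± 559 in MSC (intensity, SD, n = 3 each). No member was called higher in JG, although the groups did not overlap for 2 of the 3 Bmp7 probe sets, which lay above MSC. Of the 13 probe sets 3 were called lower in JG and 0 higher, where 5.57% and 4.23% of all probe sets were called in these directions by limma at an adjusted p under 0.05. At an unadjusted p under 0.05, limma gave 2 member probe sets higher in JG, both of Bmp7, and those of Bmp4, Grem1, Bmper and Id3 lower. The share of all probe sets at this unadjusted threshold is not given here, so these are not read as a result. Without MSC sample 2 the 3 calls at an adjusted p under 0.05 became 1. The groups were apart with JG below for 5 of the 13 probe sets and with JG above for 2, against 18.1% and 16.1% of all probe sets. With each gene taken by its brightest probe set, 3 of 9 genes were lower in JG, where 6.13% of all genes were. All differences below are JG minus MSC in log2 of the intensity plus 16, with the standard error of limma, and where a group lies below 16 the size depends on the added constant. In bulk samples, fewer cells of a type and less RNA per cell cannot be told apart.

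**Figure D1:**
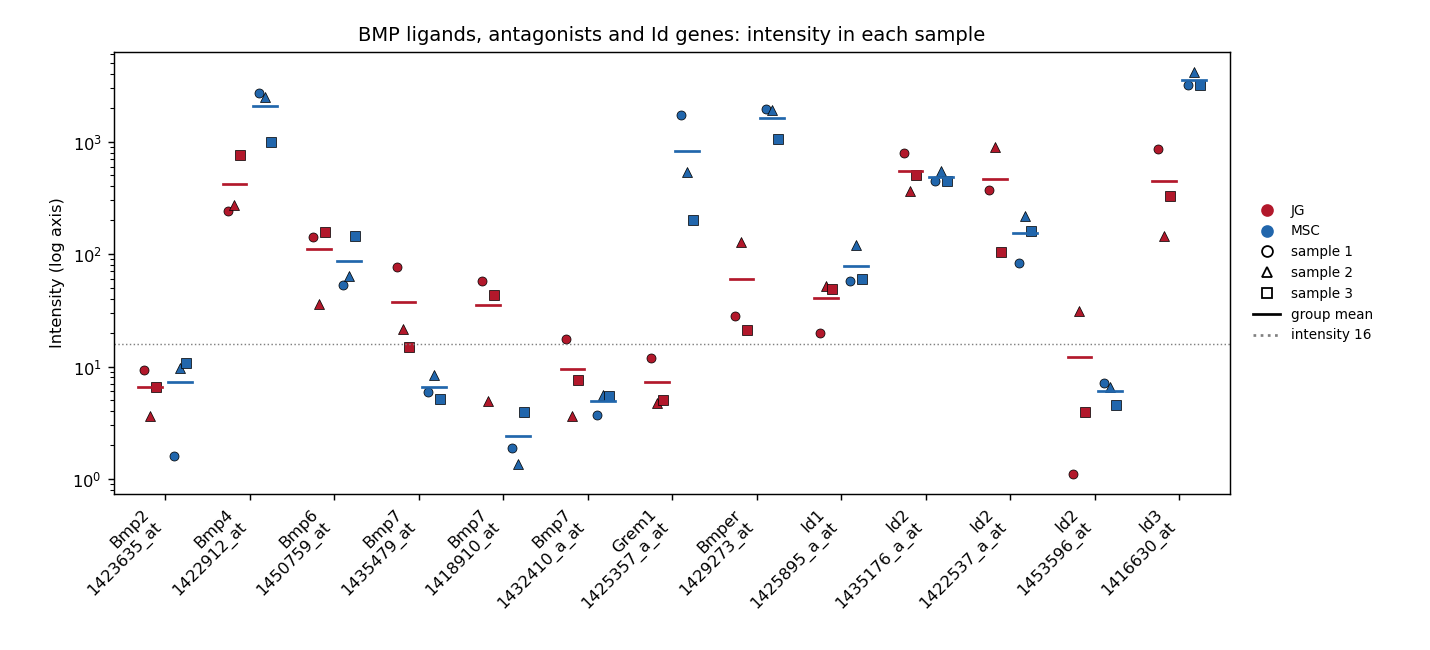
Intensity (log axis) of the 13 probe sets in each JG sample (red, left) and MSC sample (blue, right), with bars at the group means and a dotted line at 16. Grem1, Bmper, Bmp4, Id1 and Id3 have every JG sample below every MSC sample, and 2 of the 3 Bmp7 probe sets have every JG sample above.

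For 5 of the 9 genes all JG samples lay below all MSC samples. Id1, which was 1 of them, had no entry in the source of the upstream regions. Upstream regions are shown for the others, the 3 called genes and Bmp4. Each is the 250 bases before the annotated start, on the gene's own strand, from RefSeq on GRCm38.p6: Bmp4 at chr14:46390670-46390919 (minus strand), Grem1 at chr2:113758649-113758898 (minus strand), Bmper at chr9:23222826-23223075 (plus strand) and Id3 at chr4:136143572-136143821 (plus strand). Capitals mark CAGAC or its reverse complement GTCTG, the core of the Smad-binding element, and GGCGCC, a GC-rich sequence also bound by Smads of the BMP branch.
Bmp4: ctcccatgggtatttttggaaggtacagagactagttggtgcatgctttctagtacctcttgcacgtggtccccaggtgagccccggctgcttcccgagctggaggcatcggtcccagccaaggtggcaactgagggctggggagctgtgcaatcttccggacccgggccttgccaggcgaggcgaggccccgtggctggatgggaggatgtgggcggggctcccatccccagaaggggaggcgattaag
Grem1: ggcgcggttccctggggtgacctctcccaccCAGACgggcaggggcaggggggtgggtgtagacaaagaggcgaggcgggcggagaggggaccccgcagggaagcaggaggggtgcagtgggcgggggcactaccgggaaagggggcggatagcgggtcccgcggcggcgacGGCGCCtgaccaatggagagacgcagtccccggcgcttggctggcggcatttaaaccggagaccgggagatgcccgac
Bmper: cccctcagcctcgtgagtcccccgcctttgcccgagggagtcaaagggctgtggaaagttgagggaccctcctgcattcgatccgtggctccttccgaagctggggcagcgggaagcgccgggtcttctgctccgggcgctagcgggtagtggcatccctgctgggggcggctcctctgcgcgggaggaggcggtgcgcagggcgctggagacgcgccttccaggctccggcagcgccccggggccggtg
Id3: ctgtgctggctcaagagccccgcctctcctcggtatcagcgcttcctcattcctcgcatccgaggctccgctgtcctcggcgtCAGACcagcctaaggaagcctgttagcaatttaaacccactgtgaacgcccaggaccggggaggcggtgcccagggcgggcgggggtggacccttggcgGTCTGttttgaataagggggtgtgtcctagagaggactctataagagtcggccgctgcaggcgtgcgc
Id3 held CAGAC or GTCTG 2 times, Grem1 held CAGAC 1 time and GGCGCC 1 time, and Bmp4 and Bmper held neither in these windows. Among 32851 windows of the same length in the table, 42.2% held CAGAC on either strand and 9.59% held GGCGCC. The E-box CANNTG, the motif of the E proteins that Id proteins hold back, was found 3 times before Bmp4 and 0 times before Grem1, Bmper and Id3, and in 66.2% of all windows. Of the 9 genes 6 had an entry, and in the other two Bmp6 held CAGAC 1 time and CANNTG 2 times, and Id2 held GGCGCC 1 time and CANNTG 1 time. No match of one motif overlapped a match of another in these windows. The GC content was 63.2% before Bmp4, 72.0% before Grem1, 71.6% before Bmper and 62.8% before Id3, against a median of 52.4% over all windows. Matches of these letters are a description and show no binding.

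Among the ligands, Bmp4 differed most. Its 1 probe set had an intensity of 241, 275 and 754 in JG samples 1 to 3, against 2709, 2475 and 987 in MSC samples 1 to 3. Every JG value lay below every MSC value, but JG sample 3 and MSC sample 3 approached each other. The difference was -2.30 ± 0.58 (95% interval -3.70 to -0.89) and was not called over all probe sets (limma adjusted p = 0.0604). It was called in 7 of 18 alternative fits, with an adjusted p from 0.0334 to 0.192, among them the fit adjusted over genes instead of probe sets (0.0443) and the fit without JG sample 3 (0.0451).

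Bmp7, which the ureteric bud and nephron epithelium express in the mouse, was read by 3 probe sets. The first, 1435479_at, gave 76.2, 21.7 and 14.8 in JG against 5.96, 8.45 and 5.14 in MSC, a difference of 1.08 ± 0.44 (limma adjusted p = 0.178). The second, 1418910_at, gave 57.5, 4.96 and 43.7 in JG against 1.89, 1.36 and 3.96 in MSC, a difference of 1.30 ± 0.49 (limma adjusted p = 0.155). In both, JG sample 1 was highest and the MSC samples were all below 16. The lowest JG sample was also below 16, and was sample 3 in the first probe set and sample 2 in the second. The third, 1432410_a_at, ran from 3.62 to 17.4 in JG and from 3.74 to 5.58 in MSC, with overlapping groups and a difference of 0.25 ± 0.26 (limma adjusted p = 0.585). The second probe set was called without JG sample 2 (adjusted p = 0.0113) and with array weights (adjusted p = 0.0206), and its adjusted p over 15 alternatives reached 0.336. The nephron segment markers given above were also higher in JG, and their part in the Bmp7 values was not tested.

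Bmp6, the ligand that hepatic endothelium makes to control iron balance, did not separate the groups. It was 143, 35.8 and 157 in JG against 53.5, 64.4 and 144 in MSC (0.22 ± 0.57, 95% interval -1.16 to 1.61, limma adjusted p = 0.837). Within JG, sample 2 lay far below the others, and within MSC, sample 3 lay above them. Bmp2, the closest relative of Bmp4, was dim on all arrays, at 3.64 to 9.28 in JG and 1.59 to 10.7 in MSC. Its difference of -0.03 ± 0.26 (limma adjusted p = 0.949) lies where the added constant damps most of any change, so neither a change nor its absence could be read.

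The secreted BMP-binding proteins gave the largest differences of the 9 genes. Grem1, which encodes gremlin 1, an antagonist of BMP2, BMP4 and BMP7, was 12.01, 4.76 and 5.08 in JG against 1741, 539 and 201 in MSC. All JG samples were below 16, and the MSC samples spread widely, with sample 1 far above sample 3. The difference was -4.69 ± 0.73 (95% interval -6.47 to -2.91, limma adjusted p = 0.0147). Its size depended on the added constant and on single samples: it was -6.22 with a pseudocount of 1 and -3.21 with 64, and with 1 sample left out it ran from -5.42 (without MSC sample 3) to -3.91 (without MSC sample 1). The call was lost without JG sample 3 (adjusted p = 0.0533), without MSC sample 2 (0.0693) or with a pseudocount of 64 (0.0541), and held in the other 15 of 18 alternatives, down to an adjusted p of 0.00388. Without JG sample 1 the adjusted p was 0.0189.

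Bmper encodes an extracellular protein with von Willebrand factor C repeats that binds BMPs and, depending on the setting, inhibits or promotes their signalling. It was 27.9, 129 and 21.3 in JG against 1939, 1913 and 1050.0 in MSC, so that even JG sample 2 lay far below the dimmest MSC sample. The difference was -4.68 ± 0.58 (95% interval -6.09 to -3.28, limma adjusted p = 0.00673). It was the only one of the 3 calls that held in all 18 alternatives, with an adjusted p from 0.00143 to 0.0433. Bmp4, Grem1 and Bmper shared a feature within the MSC group: each was lowest in MSC sample 3 and highest in MSC sample 1.

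**Figure D2:**
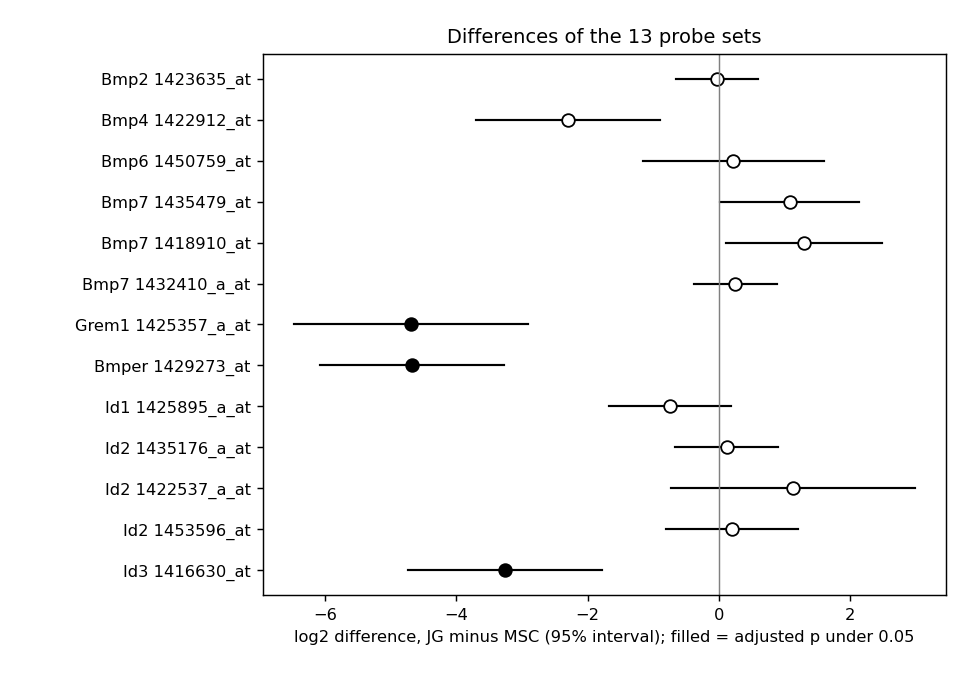
Difference JG minus MSC of each probe set in log2 of the intensity plus 16 (points) with its 95% interval (lines); filled points have an adjusted p under 0.05. Grem1 (-4.69), Bmper (-4.68) and Id3 (-3.26) are called, and the interval of Bmp4 also lies below 0. The intervals of 2 of the 3 Bmp7 probe sets, which are not called, lie above 0.

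The 3 Id genes, which answer to BMP signalling in many cell types, gave 1 call. Id3 was 864, 144 and 326 in JG against 3207, 4151 and 3162 in MSC. The highest JG sample, sample 1, lay far below the lowest MSC sample. The difference was -3.26 ± 0.61 (95% interval -4.74 to -1.79, limma adjusted p = 0.0255). The call was lost without JG sample 3 (adjusted p = 0.0777), without MSC sample 1 (0.0925), MSC sample 2 (0.109) or MSC sample 3 (0.102), and without JG sample 1 the adjusted p was 0.00421. Over its 18 alternatives the adjusted p ran from 0.00255 to 0.109 and the difference from -3.90 to -2.67, so the calls changed more than the size did.

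Id1, the classical BMP target with Smad-responsive elements far upstream of the start, was 20.0, 52.1 and 49.4 in JG against 57.2, 119 and 60.3 in MSC. The groups did not overlap, by a gap of a few units between JG sample 2 and MSC sample 1, and the difference of -0.75 ± 0.38 (95% interval -1.67 to 0.18) was not called (limma adjusted p = 0.268, and 0.205 to 0.563 over 18 alternatives). Id2, which in other tissues also answers to signals besides BMPs, was read by 3 probe sets, and none was called. The brightest, 1435176_a_at, was 786, 363 and 504 in JG against 448, 553 and 447 in MSC, a difference of 0.12 ± 0.32 with a 95% interval from -0.66 to 0.91 (limma adjusted p = 0.840).

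The other Id2 probe sets ordered the JG samples differently. Probe set 1422537_a_at gave 373, 904 and 104 in JG against 83.8, 216 and 162 in MSC (1.13 ± 0.77, limma adjusted p = 0.398). Probe set 1453596_at gave 1.11, 31.4 and 3.98 in JG against 7.09, 6.64 and 4.55 in MSC (0.20 ± 0.41, limma adjusted p = 0.799). JG sample 2 was thus lowest in the brightest probe set and highest in both others, so the order of the JG samples in Id2 cannot be read from this array. The intervals of the Id3 difference and of the brightest Id2 difference do not overlap, and the difference between the genes was not tested.

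The rest of the pathway was read from 6 lists with 60 genes, of which 55 were measured, each by its brightest probe set. Of these 2 were called higher in JG and 8 lower, where 6.65% and 6.13% of all genes were. The median difference of the 55 was -0.24, against 0.07 over all 18193 genes. The 10 called genes were Sostdc1 and Msx1, higher in JG, and Crim1, Fstl3, Acvr1, Smad1, Smad7, Msx2, Atoh8 and Tcf3, lower in JG. These counts depended on single samples: they were 6 higher and 16 lower without JG sample 1, 1 and 6 without JG sample 3, 1 and 8 without MSC sample 1, 1 and 2 without MSC sample 2, and 1 and 4 without MSC sample 3.

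**Figure D3:**
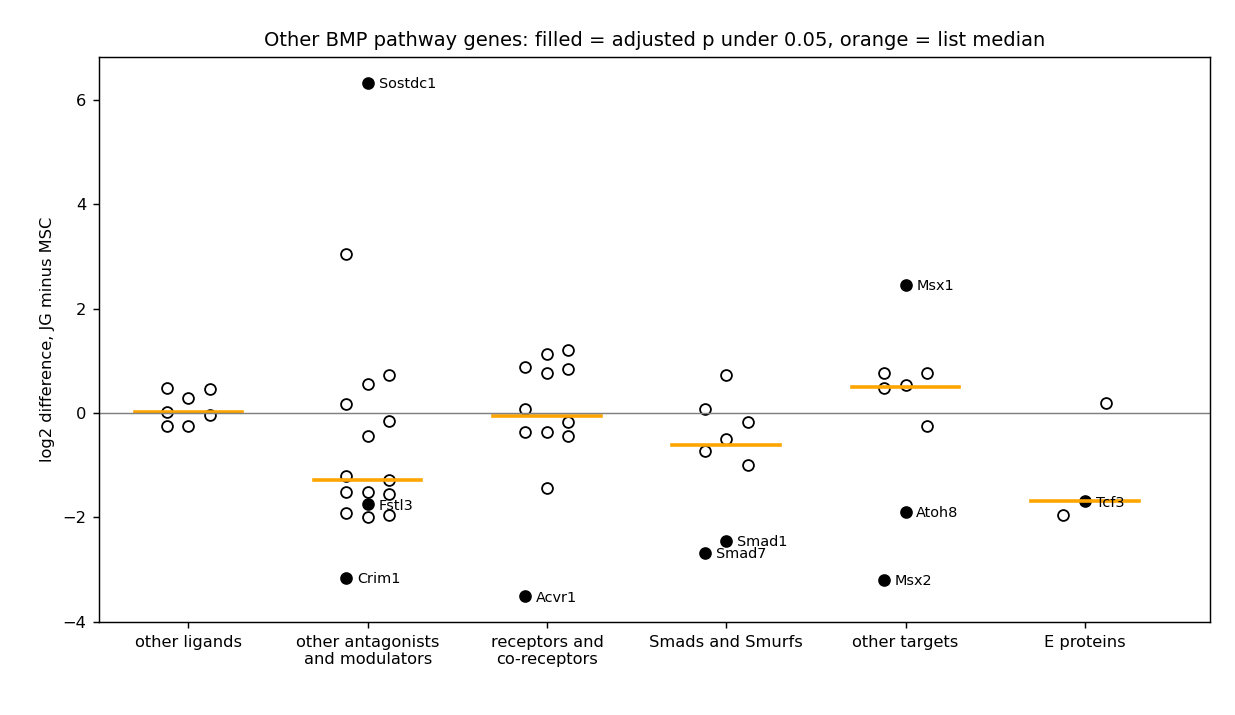
Difference JG minus MSC, in log2 of the intensity plus 16, of 55 other BMP pathway genes in 6 lists; filled points have an adjusted p under 0.05 and orange lines are list medians. Sostdc1 stands highest at 6.32 and Acvr1 lowest at -3.51.

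Of 17 other antagonists and modulators measured, 1 was called higher in JG, 2 lower and 14 not called, with a median difference of -1.29. Beside the 6.65% and 6.13% of all genes, these counts are not read as a result on the list. Sostdc1, which encodes an antagonist of BMPs and of Wnt signalling known from the distal nephron of the mouse, was 2783, 1419 and 1245 in JG against 3.57, 10.6 and 3.07 in MSC. Every JG sample was bright and every MSC sample lay below 16, and the difference of 6.32 ± 0.36 (limma adjusted p = 0.000439) held in all 18 alternatives with an adjusted p up to 0.0121. Its second probe set was also called higher. Kcp, which encodes a secreted protein that in the mouse kidney enhances BMP7 signalling, was 1534, 194 and 600 in JG against 34.2, 36.5 and 119 in MSC. The groups did not overlap and the difference of 3.05 ± 0.79 was not called (limma adjusted p = 0.0648), although it was in 9 of 18 alternatives (adjusted p from 0.0234 to 0.201), among them without JG sample 2 (0.0287). In JG samples 1 to 3 the summed intensity of the 5 distal tubule markers was 10379, 2775 and 6780.0, and in MSC 30.3, 58.6 and 57.7. Its order over the JG samples was that of Kcp (sample 1, then 3, then 2). Sostdc1 ran from sample 1 over sample 2 to sample 3. The summed markers of the thick ascending limb, of fibroblasts and of MSC, and all nephron segment markers together, had the order of Kcp too. Those of the other marker lists did not. The order of so few samples is a description only, and the part of these markers in Kcp and Sostdc1 was not tested.

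Crim1, whose product is a membrane protein with cysteine-rich repeats that binds BMPs, was 612, 256 and 204 in JG against 3158, 3167 and 2627 in MSC (-3.16 ± 0.42, limma adjusted p = 0.00860). Both of its probe sets were called lower, and of 18 alternatives only leaving out MSC sample 2 ended the call (adjusted p = 0.0519). Fstl3, the gene of an activin-binding relative of follistatin, was 94.2, 90.9 and 61.7 in JG against 226, 408 and 323 in MSC (-1.75 ± 0.30, limma adjusted p = 0.0188), and was called in 12 of 18 alternatives (adjusted p from 0.00706 to 0.0924). Among the losses were those without JG sample 3 (adjusted p = 0.0550), MSC sample 2 (0.0803) or MSC sample 3 (0.0924), with an intensity trend and robust estimation (0.0541) and with a pseudocount of 1 (0.0506). Twsg1, which encodes a chordin-binding modulator, was 635, 297 and 344 in JG and 1639, 1148 and 945 in MSC and was not called (-1.55 ± 0.37, limma adjusted p = 0.0522). It was called in 6 of 18 alternatives, with an adjusted p from 0.0140 (without JG sample 1) to 0.166 (without MSC sample 1). Of the 6 fits with 1 sample left out, 1 called it. The groups were also apart, with no call, for Nbl1 and Bmp1, an antagonist of the DAN family and the protease that cleaves chordin, at -1.91 ± 0.72 and -1.98 ± 0.66. Fstl1, Fst and Tll1 overlapped between the groups. The antagonists noggin and chordin were dim: Nog reached at most 17.7 and Chrd at most 29.4 on any array.

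Of the 7 other ligand genes measured none was called, and their list median was 0.03. Bmp5 reached 60.3 in JG sample 2 and at most 13.1 on the other arrays, and Gdf5, Bmp10, Gdf2 and Bmp8a stayed below 16 on all arrays. These values are too near the floor of the table to read a change.

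**Figure D4:**
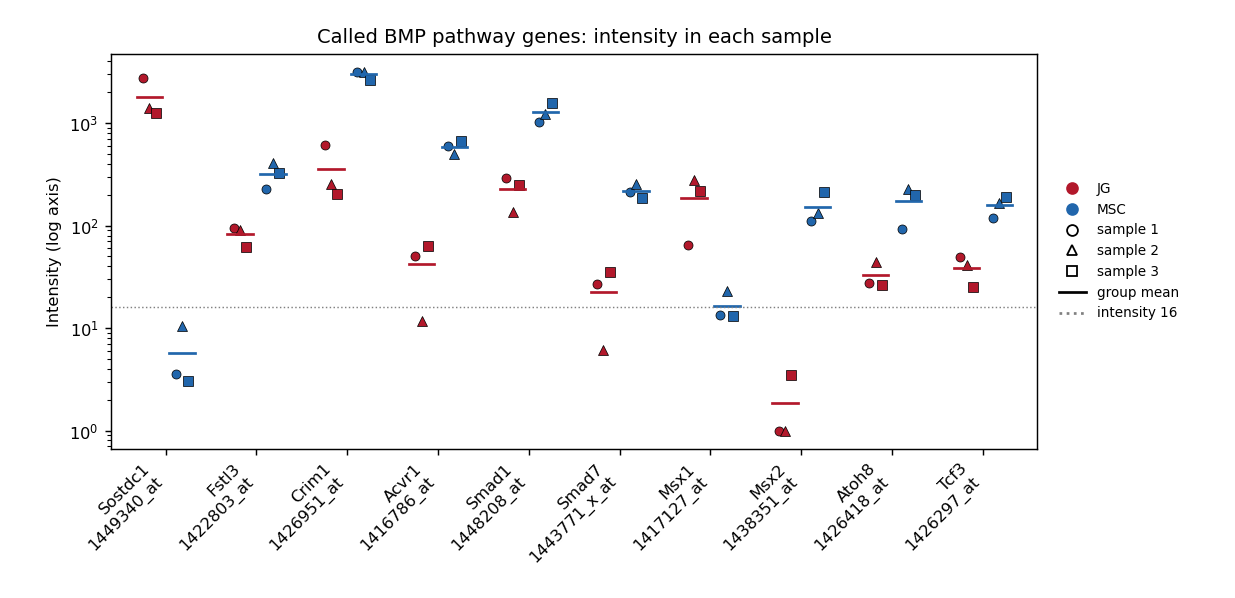
Intensity (log axis) of the 10 called pathway genes in each JG sample (red, left) and MSC sample (blue, right), with bars at the group means and a dotted line at 16. The JG samples lie above the MSC samples in Sostdc1 and Msx1 and below them in the other genes.

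Among 12 receptors and co-receptors, 1 was called lower in JG and none higher, a share near the 6.13% of all genes. Acvr1, a type I receptor for BMP6 and BMP7, was 50.1, 11.9 and 63.6 in JG against 594, 499.8 and 675 in MSC (-3.51 ± 0.43, limma adjusted p = 0.00654) and was called in all 18 alternatives (adjusted p up to 0.0435). This rests on 1 of its 3 probe sets, since the others overlapped between the groups and were not called. Bmpr1a, the type I receptor for BMP2 and BMP4, was 2143, 558 and 810 in JG against 3197, 2622 and 2337 in MSC, apart but not called (-1.43 ± 0.51, limma adjusted p = 0.136). Bmpr2, the type II receptor, was 1299, 1763 and 1953 in JG against 1910.2, 1411 and 1420 in MSC, with a difference of 0.07 ± 0.26 and a 95% interval from -0.56 to 0.71. The type II receptor gene Acvr2a and the co-receptor gene Rgmb also overlapped between the groups.

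The list of Smads and Smurfs had 2 of 8 genes lower in JG and none higher, with a median of -0.61. This count is too small to read against the 6.13% of all genes called lower and 6.65% called higher. Smad1, which carries the BMP signal, was 291, 136 and 250.5 in JG against 1018, 1228 and 1561 in MSC (-2.45 ± 0.34, limma adjusted p = 0.0100). A second of its 3 probe sets was called lower and the third was not called. Smad5, its close relative with the same role, was 1037, 709 and 447 in JG against 915, 806 and 656 in MSC, with overlapping groups and a 95% interval from -1.03 to 0.67. Smad7, an inhibitory Smad that is itself a target of BMP and of transforming growth factor beta, was 26.6, 6.10 and 35.2 in JG against 213, 253 and 187 in MSC (-2.67 ± 0.36, limma adjusted p = 0.00911), and both of its probe sets were called lower. Without MSC sample 2 neither Smad1 (adjusted p = 0.0558) nor Smad7 (0.0544) was called, and without MSC sample 3 Smad1 was not (0.0576). Smad6, the other inhibitory Smad, was 24.7, 249 and 104 in JG and 32.8, 59.0 and 60.9 in MSC and was not called (limma adjusted p = 0.536). Smad4, the common partner Smad, was 971, 669.6 and 1269.7 in JG against 1561, 1538 and 1619.7 in MSC, apart but not called (-0.73 ± 0.28, limma adjusted p = 0.162). The ubiquitin ligase genes Smurf2 (1836, 332 and 637 in JG against 1614, 1378 and 1479 in MSC, -1.004 ± 0.60) and Smurf1 (241, 163 and 72.6 in JG against 145, 331 and 186 in MSC, -0.49 ± 0.49) overlapped between the groups and were not called.

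Of 8 measured target genes beyond the 3 Id members 1 was called higher in JG, 2 lower and 5 not called, a count too small to read against the 6.65% and 6.13% of all genes. Msx1, a homeobox gene, was 64.9, 278 and 216 in JG against 13.5, 23.1 and 13.2 in MSC (2.45 ± 0.51, limma adjusted p = 0.0346), and was called in 11 of 18 alternatives. Of the 6 fits with 1 sample left out it was called only without JG sample 1 (adjusted p = 0.00300, and 0.0677 to 0.139 in the others). Its relative Msx2 was 1.00, 1.00 and 3.52 in JG against 110, 134 and 211 in MSC (-3.19 ± 0.28, limma adjusted p = 0.00204), which held in all 18 alternatives (adjusted p up to 0.0215). The size of the Msx2 difference depended on the added constant, at -5.81 with a pseudocount of 1 and -1.68 with 64. With the mean of the Msx2 probe sets it was -1.63. For each of the pair a second probe set overlapped between the groups and was not called. Atoh8, a helix-loop-helix gene, was lower in JG (-1.89 ± 0.37, limma adjusted p = 0.0300), and was called in 12 of 18 alternatives (adjusted p from 0.0144 to 0.129). Among the losses were those without JG sample 3 (adjusted p = 0.0864), MSC sample 2 (0.114) or MSC sample 3 (0.129), with quantile normalization (0.0505) and with an intensity trend and robust estimation (0.0516). Id4, the remaining Id gene, was 1781, 108 and 1458 in JG and 369, 1248 and 204 in MSC, with a wide spread within both groups, and was not called (0.54 ± 1.18).

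The E proteins that Id proteins bind were Tcf3, Tcf4 and Tcf12. Tcf3 was 48.9, 41.4 and 25.3 in JG against 120, 167 and 192 in MSC (-1.69 ± 0.28, limma adjusted p = 0.0185). Its other 2 probe sets were not called, and with the mean of the 3 the difference was -0.26 (adjusted p = 0.543). It was called in 13 of 18 alternatives, and the call was also lost without MSC sample 2 (0.0881) or MSC sample 3 (0.0906) and with an intensity trend and robust estimation (0.0567). Tcf12 was apart and lower in JG but not called (-1.95 ± 0.50, limma adjusted p = 0.0635), and Tcf4 overlapped between the groups (0.20 ± 0.51). Tcf12 was called in 6 of 18 alternatives, with an adjusted p from 0.00309 (without JG sample 1) to 0.210 (without MSC sample 3). Of the 6 fits with 1 sample left out, 1 called it. With the mean of the Tcf12 probe sets the difference was -1.01 (adjusted p = 0.0843).

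By pattern over the 6 samples, the genes most like Grem1 were Sorbs2, Col12a1 and 2810433D01Rik (Pearson's r from 0.991 to 0.998), those most like Bmper were Htr1b, Mdfic and Rasl11a (0.989 to 0.994), and those most like Id3 were Asb3, Kpna2 and Fosl2 (0.998 to 0.999). For Bmp4 they were Pdlim5, Ppp1r3b and Akirin2 (0.978 to 0.985). These were the highest of 10715 genes with a group mean above 64. With 2 groups of 3 samples that lie far apart, such values mostly restate the difference between the groups and are a description only. The nearest genes of Id1 (Cdh3, Btg2 and Fam122b), Id2 (Tpgs1, Opn1sw and Eif5a) and Bmp6 (Vps51, Zdhhc9 and Pdcd4) followed members without a call and reached 0.973 to 0.987.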

How the data were processed

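The 6 samples (3 JG, 3 MSC) were measured on Affymetrix mouse arrays from 100 ng of total RNA labelled as biotinylated cRNA, per the labels. The authors deposited a table of intensity on a linear scale, with 1 value for each probe set on each array. The summary of probes, the background correction, the scaling of arrays and the genome build are not given in the sources used here. The medians of the arrays were 27.4, 29.0 and 36.5 for JG samples 1 to 3 and 34.1, 27.3 and 29.6 for MSC samples 1 to 3, so the deposited intensity values were not quantile normalized. Between 34.4% and 41.5% of values per array lay below 16, and no detection calls were used.

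The platform annotation gives 1 gene for 34945 of 45037 probe sets, several for 932 and none for 9160, with symbols updated through Entrez identifiers with a RefSeq table of GRCm38.p6. Values entered as log2 of the intensity plus 16 without filter. The group difference (JG minus MSC, no covariates, 6 samples) was tested in R 4.3.3 by limma 3.58.1 (lmFit, eBayes), with p-values adjusted by Benjamini-Hochberg over all probe sets at 0.05. For counts of genes, the probe set with the highest mean over the 6 arrays stood for its gene. The fit was also run on simulated data with the same spread in both groups. The JG arrays here varied more than the MSC arrays, so this did not test the fit under such unequal spread. The 9 genes and the lists were chosen with earlier results of these data known. Pathway genes were named where called or where a group mean exceeded 200, and some dimmer or uncalled ones after their values were seen. The number of arrays limits the precision. Figures were drawn with matplotlib 3.10.9.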

Additional observations from a re-analysis of the deposited data

How the results depend on the processing

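Bmper kept its call in all 18 alternatives, Grem1 in 15 and Id3 in 13, all with JG below MSC. Bmp4 was called in 7 of 18. The alternatives were other array scalings, filters on dim probe sets, other units and variance settings, pseudocounts of 1 and 64, a block on the sample number and each sample left out. With 1 sample left out, the probe sets called higher in JG ranged from 832 to 4620 and those lower from 617 to 5557, the highest without JG sample 1; member probe sets called higher ranged from 0 to 1 and lower from 1 to 3, member genes called lower from 1 to 3, and BMP pathway genes called higher from 1 to 6 and lower from 2 to 16. Array weights gave 4732 and 5694 probe sets, 1 member probe set higher in JG (Bmp7) and 8 and 15 pathway genes. Adjustment over genes, with 1 probe set each, gave 1403 of 18193 lower. The fit over all probe sets called 1115 of the same genes lower, and 2509 of 45037 probe sets. Adjusted over genes, 3 pathway genes were called higher and 10 lower. A pseudocount of 64 left 1 pathway gene higher. The cause of these changes was not tested, beyond the fewer features or samples in some fits.

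Whether the sample numbers pair the samples is not known. The deviations of same-numbered samples from their group means correlated at -0.20, -0.01 and -0.01, and those of differently numbered samples at -0.12 to 0.13. With so few samples these values cannot decide it. With the sample number as a replicate block, 900 probe sets were higher in JG and 703 lower, 1 and 3 pathway genes, and Id3 had an adjusted p of 0.0726. Fstl3 (0.0744), Smad1 (0.05004), Smad7 (0.0538), Msx1 (0.0633), Atoh8 (0.0634) and Tcf3 (0.0888) also lost their call under the block.

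Differences that changed sign were those of genes without a call. That of Bmp2 ran from -0.22 to 0.077 over the fits with 1 sample left out and was 0.058 at a pseudocount of 1. That of Bmp6 ran from -0.087 to 0.78 over the same fits. For Id2 the range was -0.16 to 0.38 (1435176_a_at) and -0.26 to 0.48 (1453596_at), and the second gave -0.0044 at a pseudocount of 1. Dim genes are limited by the floor of the table: changes of Bmp2 and of most other ligands could not be read.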
